A study of Mus musculus with 12 samples.

Results

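The addition of Taeeumjowitang (TJ, also written Taeeumjowuitang), an extract of a herbal mixture, to a high-fat diet was followed in epididymal white adipose tissue (eWAT) across 12807 genes. These were the genes that averaged 1 FPKM or more over 3 TJ libraries and 3 libraries of the high-fat diet (HFD) group, out of 23474 genes in the table. FPKM are fragments scaled to transcript length and to the fragments mapped in the library, so levels of different genes can be compared per length. Genes of oxidative phosphorylation (OXPHOS) and of leukocyte extravasation were set apart, which left 12617 genes for the description. The groups were male C57BL/6J mice of 17 weeks that had eaten, for 12 weeks, the HFD alone or the HFD with 3% (w/w) TJ. Each library came from 1 mouse out of a group of 10, and all mice were fasted before the tissue was taken. Both groups thus shared the strain, the diet and the feeding time. The fat pad lies against the testis and the epididymis, and it holds fat cells, vessels, progenitors and immune cells in 1 sample.

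The tissue label held. All 8 defining markers of white fat were measured, and their FPKM summed to 20615 to 23060 in the HFD libraries and 39311 to 70954 in the TJ libraries. Among these, Car3, a carbonic anhydrase abundant in fat cells, was at 3013, 2836 and 2347 FPKM in the HFD libraries and at 10916, 12411 and 9313 FPKM in the TJ libraries. Genes of other tissues were present in 2 HFD libraries. Markers of sperm development summed to 2560 FPKM in HFD replicate 1, compared with 126 and 114 FPKM in HFD replicates 2 and 3 and 60.3 to 73.3 FPKM in the TJ libraries. Epididymis markers summed to 1902 FPKM in HFD replicate 2 and to at most 22.4 FPKM in any other of the 6 libraries. Haemoglobin and other erythrocyte genes summed to 325 to 518 FPKM in the HFD group and 439 to 1204 FPKM in the TJ group, with the highest value in TJ replicate 2. The steps between low values place the depth at roughly 13.5 to 18.6 M fragments per library, and FPKM carry no counting error. TJ replicate 2 stood apart from the other TJ libraries, with the highest FPKM sum of the 6 libraries at 725245, against at most 552100 in the HFD group. It was the highest TJ library in 796 of the 949 up-regulated genes and the lowest in 1303 of the 1417 down-regulated genes.

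White adipose tissue stores fatty acids as triglyceride and releases them between meals, and it secretes hormones such as leptin, adiponectin and resistin. In obesity, macrophages gather around dying fat cells, take up lipid into lysosomes and divide locally, while fibroblasts lay down collagen around them. Capillary endothelium hands lipoprotein lipase to the vessel lumen, where fatty acids are set free for uptake.

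Differentially expressed genes (DEGs) had an adjusted p-value under 0.05 (Benjamini-Hochberg, limma on log2(FPKM + 1)) and a fold change of at least 1.5. By this rule 18.5% of the tested genes were DEGs, 7.41% up-regulated and 11.1% down-regulated in the TJ group. Without TJ replicate 2, there were 15.7% DEGs, 6.19% up-regulated and 9.53% down-regulated, and 1831 DEGs were shared in direction with the comparison of all 6 libraries. Other libraries decided whether genes were called. When HFD replicate 1, 2 or 3 or TJ replicate 1 was left out, limma called 0 genes, with smallest adjusted p-values of 0.0512, 0.0808, 0.110 and 0.0596 and 4735, 3837, 3732 and 4233 genes at an unadjusted p-value under 0.05. Without TJ replicates 2 and 3 there were 2023 and 3412 DEGs, with 4727 and 5967 genes at an unadjusted p-value under 0.05, so that fits with similar unadjusted counts fell on either side of the adjusted threshold. With all 12 libraries of the series in the fit, 1 gene (Gm20547) was called, and the unadjusted p-value was under 0.05 in 2183 genes. An exact permutation test of 3 libraries against 3 cannot give a two-sided p below 0.1. Across the tested genes, the log2 fold change had a median of -0.14, and -0.10 without TJ replicate 2, so that each list below is read against that value. Scaling moved it to -0.03 (median of ratios) and 0.03 (quantile), and the split of up- and down-regulated DEGs from 949 and 1417 to 1229 and 1177 and to 1543 and 1151. In a bulk sample, fewer cells of a type and less RNA per cell cannot be told apart.

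Genes were described by lists of known function, some of which share members. Lists with more up-regulated DEGs than the 7.41% of all genes included hormones, triglyceride storage, lipolysis, retinoid handling, vessels and interferon response. Lists with more down-regulated DEGs than the 11.1% of all genes included cell division, macrophages, lysosomes, innate sensors, sterol synthesis and matrix. The plot of list medians and DEG shares gives both beside the values of all tested genes.

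**Figure D1:**
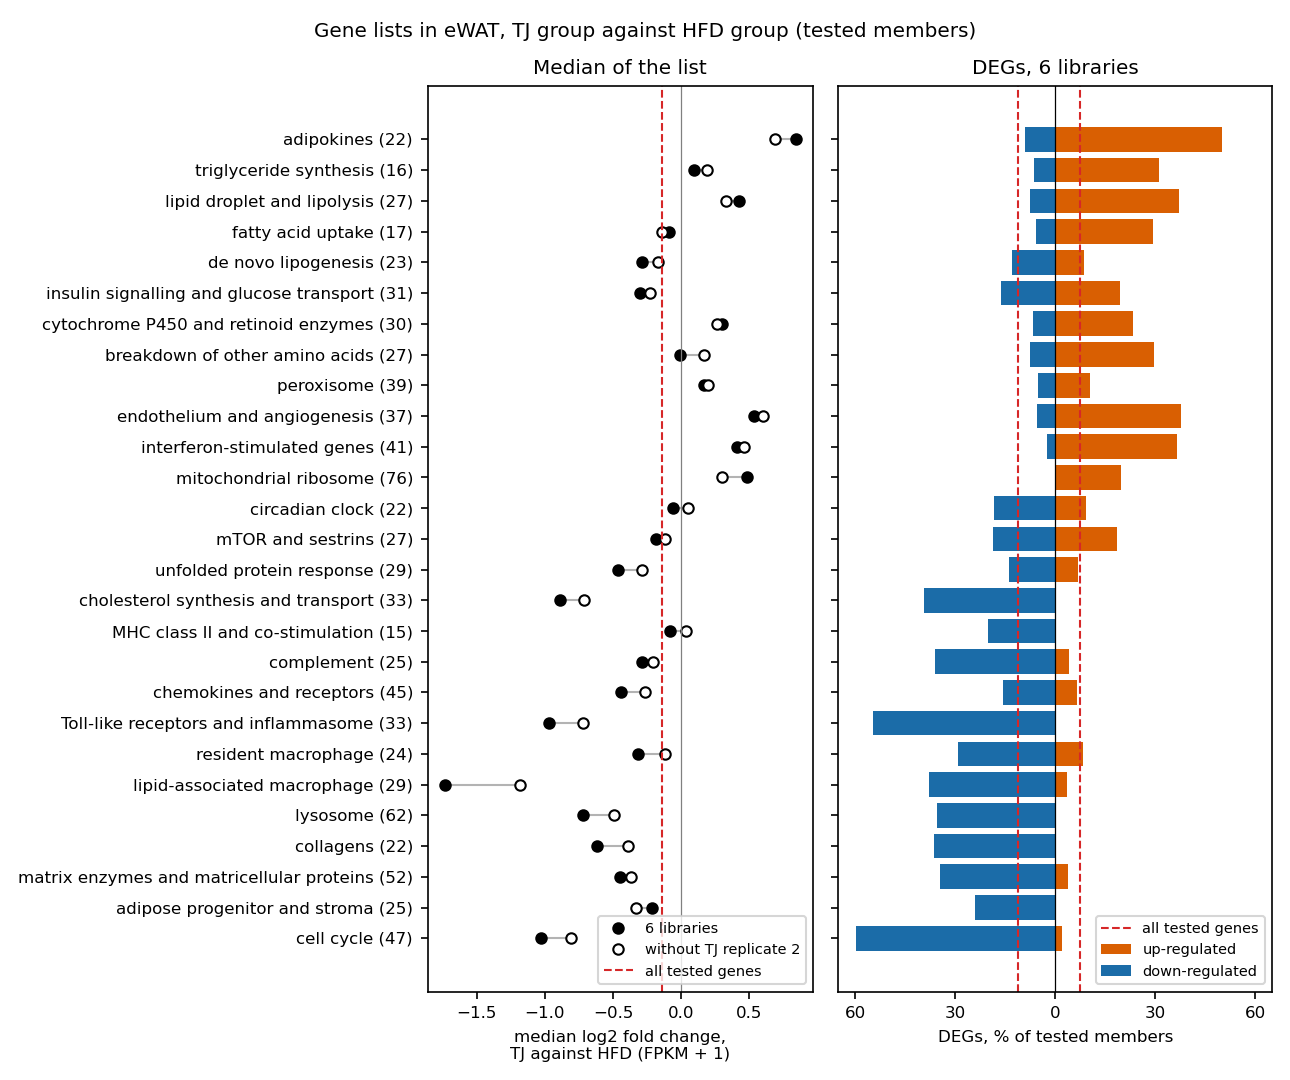
Median log2 fold change (left; filled points, 6 libraries; open points, without TJ replicate 2) and share of DEGs (right; orange, up-regulated; blue, down-regulated) in 27 gene lists, with the number of tested members in brackets and dashed lines for all tested genes. Cell cycle genes have the highest share of down-regulated DEGs at 59.6% and adipokines the highest share of up-regulated DEGs, 11 of 22, among the lists drawn.

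Transcripts of hormones and other secreted proteins of fat had more up-regulated than down-regulated DEGs in the TJ group. Of 22 adipokines tested, 11 rose and 2 fell, at a median of 0.84 on the log2 scale, and without TJ replicate 2 the numbers were 11 and 3 and the median 0.69. Retn (ENSMUSG00000012705), which encodes resistin, was at 268, 270 and 171 FPKM in the HFD libraries and at 1037, 2449 and 759 FPKM in the TJ libraries. The lowest TJ library was thus well above the highest HFD library, and the difference was 2.42 ± 0.43 on the log2 scale (SE, limma, adjusted p = 0.0248) and 1.93 without TJ replicate 2. In plasma, the authors measured less resistin protein in the TJ group, opposite in direction to this RNA, and less leptin as well. Nnat, neuronatin, was at 371, 313 and 255 FPKM in the HFD group and at 1439, 2050 and 1082 FPKM in the TJ group. It overlaps Blcap on the opposite strand, and the counting is not stated to use strand, so that fragments of such pairs cannot be told apart. The same holds for Nrg4, Mogat1, Lipe, G0s2, Plin4, Adcy3, Acss2, Ucp2, Cyp51, Csad, Prodh, Glul, Npc1, Prdx5, Nos3, Tap1, Tap2, Irf7, Irf1, Ccl2, Ccnd3, Atp6v1b2, Csf1r, Fn1 and Fbn1, and Per3, Hsp90b1 and Cd247 overlap a gene on their own strand. Agt, angiotensinogen, rose by 1.96 on the log2 scale, Nrg4, a neuregulin secreted by fat, by 1.66, and Rbp4, the retinol carrier of plasma, by 1.57. The 2 that fell were Lcn2 and Fst. Lcn2, the iron-sequestering lipocalin of inflammation, was at 24.0, 24.2 and 12.2 FPKM in the HFD libraries and at 2.21, 2.12 and 4.03 FPKM in the TJ libraries, which is -2.45 ± 0.31 on the log2 scale (difference ± SE, limma, adjusted p = 0.0196). Fst, follistatin, had a log2 fold change of -1.18. Lep, leptin, was at 899, 1196 and 1186 FPKM in the HFD group and at 719, 292 and 825 FPKM in the TJ group, and its log2 fold change of -0.96 did not pass (limma adjusted p = 0.111).

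Genes for the esterification of fatty acids pointed both ways, and the called ones were mostly up-regulated. Of 16 genes of triglyceride synthesis, 5 rose and 1 fell, as they did without TJ replicate 2, with medians of 0.09 and 0.19. Pck1 (ENSMUSG00000027513, GRCm38, chr2:173153048-173159273, plus strand), the enzyme that supplies glycerol 3-phosphate from smaller precursors, was at 266, 246 and 227 FPKM in the HFD libraries and at 940, 1626 and 818 FPKM in the TJ libraries. The group means were 246 ± 19.9 and 1128 ± 435 FPKM (SD, n = 3), and the difference is 2.13 ± 0.26 on the log2 scale (difference ± SE, limma, adjusted p = 0.0196). Gpat3, which adds the first acyl chain, was at 14.3, 14.9 and 12.4 FPKM and at 46.5, 43.0 and 30.7 FPKM, with TJ replicate 2 between the other TJ libraries. Mogat1, a monoacylglycerol acyltransferase, rose by 1.81, Aqp7, the glycerol channel, by 1.10, and Dgat1, which adds the last acyl chain, by 0.94 on the log2 scale. Gk, glycerol kinase, fell from 8.92, 15.7 and 9.34 FPKM to 3.33, 1.43 and 4.10 FPKM. Dgat2, the other enzyme for the last step and with Pck1 the most abundant of the list, had a log2 fold change of -0.02 and overlapping groups.

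Lipid droplet and lipolysis genes had more up-regulated than down-regulated DEGs. Of 27 tested, 10 rose and 2 fell (9 and 2 without TJ replicate 2), with a median of 0.43 and 0.33 without that library. Lipe, hormone-sensitive lipase, was at 417, 354 and 366 FPKM in the HFD group and at 739, 1168 and 673 FPKM in the TJ group, which is 1.14 ± 0.23 on the log2 scale (difference ± SE, limma, adjusted p = 0.0278). G0s2, an inhibitor of adipose triglyceride lipase, rose by 1.49. Receptors that restrain or start lipolysis rose as well. Hcar2 and Hcar1, receptors for hydroxybutyrate and lactate, had log2 fold changes of 1.12 and 0.74, Npr1, the natriuretic peptide receptor, 0.75, and Adrb3, the beta-3 adrenergic receptor, 2.51. The droplet coats went apart. Plin5, Plin4 and Plin1 rose by 1.45, 1.02 and 0.79 on the log2 scale, whereas Plin2, the coat of droplets in macrophages and many other cells, fell from 1299, 1038 and 1336 FPKM to 751, 471 and 621 FPKM. Adcy3, an adenylyl cyclase, also fell, with a log2 fold change of -1.03.

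**Figure D2:**
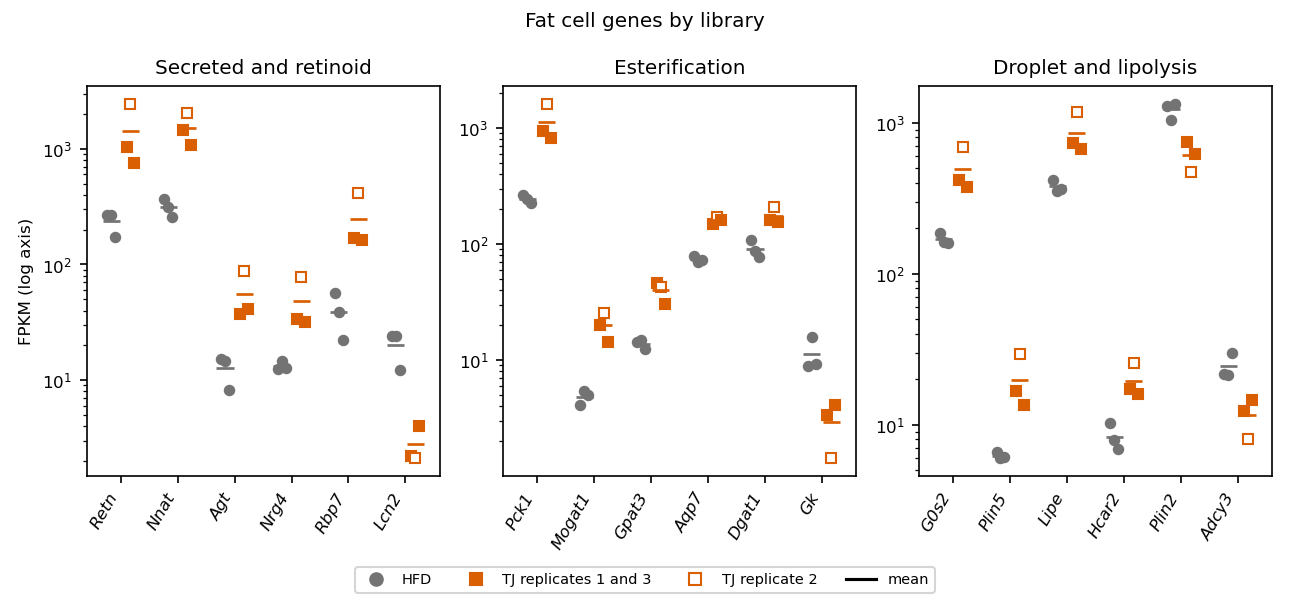
FPKM on a log axis of 18 fat cell genes in the 3 HFD libraries (grey circles) and 3 TJ libraries (orange squares, TJ replicate 2 open), with the group means as bars. Lcn2, Gk, Plin2 and Adcy3 lie lower in every TJ library than in every HFD library and the other 14 genes higher, where 51.5% of all tested genes did not overlap, 31.4% with the TJ group lower and 20.1% with it higher.

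Fatty acid uptake had 5 up-regulated DEGs and 1 down-regulated DEG of 17, with a median of -0.09 and of -0.14 without TJ replicate 2. The balance turned with quantile normalization, to 2 up-regulated and 3 down-regulated DEGs, and with the trend of fold changes with transcript length removed there were 3 and 0. Gpihbp1, the protein that carries lipoprotein lipase across capillary endothelium, was at 84.8, 73.8 and 63.1 FPKM in the HFD group and at 175, 443 and 212 FPKM in the TJ group. Fabp4, the fatty acid binding protein of fat cells, was the most abundant member, at 12038 to 14495 FPKM in the HFD group and 21797 to 48299 FPKM in the TJ group. Acsl4, an acyl-CoA synthetase for polyunsaturated fatty acids, fell by 1.04 on the log2 scale, and Lpl itself differed by -0.46 on the log2 scale, which did not pass (limma adjusted p = 0.279).

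Fatty acid synthesis from acetyl-CoA was split. Of 23 genes tested, 2 rose and 3 fell, which is near the share of DEGs among all genes, and the median was -0.29 and -0.17 without TJ replicate 2. Scd1, the delta-9 desaturase, was at 3389, 4571 and 3545 FPKM in the HFD libraries and at 6936, 5611 and 8264 FPKM in the TJ libraries. Its log2 fold change of 0.85 became -0.04 with quantile normalization. Thrsp, a lipogenic regulator, rose by 1.01 on the log2 scale. Acly, which makes cytosolic acetyl-CoA from citrate, fell from 80.9, 104 and 91.1 FPKM to 40.9, 23.3 and 57.2 FPKM. Elovl6, the elongase of saturated chains, and Acss2, which makes acetyl-CoA from acetate, had log2 fold changes of -1.32 and -0.88. Fasn, fatty acid synthase, was at 319 to 393 FPKM in the HFD group and 229 to 333 FPKM in the TJ group, with overlapping groups.

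In insulin signalling and glucose transport, 6 of 31 genes rose and 5 fell, with a median of -0.31 that was 0.00 once the trend with transcript length had been removed. Slc2a4, the insulin-responsive glucose transporter, was at 25.6, 28.8 and 20.0 FPKM in the HFD group and at 44.4, 38.7 and 50.1 FPKM in the TJ group. The difference was 0.82 on the log2 scale and 0.92 without TJ replicate 2. Irs3, an insulin receptor substrate of rodent fat, Akt2, the kinase downstream of it, and Trarg1, a regulator of glucose transporter traffic, rose by 0.89, 0.81 and 0.99 on the log2 scale. Slc2a1, the glucose transporter of most cells, fell by 0.72. Grb14, which restrains the insulin receptor, fell by 1.00 on the log2 scale. The phosphatase Ptpn1, which does so too, and Gsk3b, the kinase of glycogen synthase, had log2 fold changes of -0.94 and -1.22. Thermogenic genes gave few measurements. Of 21 listed, 10 were tested, and Ucp1, the uncoupling protein of brown fat, was not among them. Ucp3 rose, and Gk, Slc6a8, Ckb and Ucp2 fell, of which Ckb and Slc6a8 belong to creatine metabolism. Ucp2, which macrophages also express, was at 708, 536 and 717 FPKM in the HFD libraries and at 354, 211 and 307 FPKM in the TJ libraries.

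Enzymes of drug, retinoid and amino acid metabolism had several up-regulated DEGs. Of 30 cytochrome P450 and retinoid genes, 7 rose and 2 fell, and 8 and 2 without TJ replicate 2, with a median of 0.30. Cyp2e1, the ethanol- and fatty-acid-oxidising P450, and Rbp7, a cellular retinol-binding protein of fat and its vessels, had the largest log2 fold changes of the list, 3.30 and 2.59. Rbp7 was at 56.5, 38.6 and 22.4 FPKM in the HFD group and at 170, 416 and 162 FPKM in the TJ group. The P450s Cyp27a1, a sterol hydroxylase, and Cyp2d22 rose by 1.00 and 0.99 on the log2 scale, while Cyp1b1 and Cyp51, of which the latter belongs to sterol synthesis, had log2 fold changes of -1.10 and -1.19. Of 27 genes for the breakdown of amino acids other than valine, leucine and isoleucine, 8 rose and 2 fell (7 and 2 without TJ replicate 2, and 4 and 2 with the length trend removed), at a median of -0.01 that was 0.17 without TJ replicate 2. Fah, the last enzyme of tyrosine breakdown, was at 62.6, 51.9 and 49.0 FPKM in the HFD libraries and at 101, 165 and 147 FPKM in the TJ libraries. Cdo1 and Csad, which turn cysteine toward taurine, rose by 0.91 and 1.12, and Prodh, proline dehydrogenase, by 0.93. Glul, glutamine synthetase, fell from 643, 656 and 760 FPKM to 422, 304 and 477 FPKM. Among 39 peroxisome genes, 4 rose and 2 fell, a share of DEGs below that of all genes. Its largest log2 fold changes were those of Pxmp2, a membrane channel, at 1.57 and Phyh, which starts the oxidation of phytanic acid, at 1.38.

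Of 19 transcription factors of fat cell differentiation, Rxrg and Gata2 rose and 0 fell, with a median of 0.45. Rxrg, a retinoid X receptor, was at 4.58, 3.50 and 3.05 FPKM in the HFD group and at 10.3, 12.1 and 8.92 FPKM in the TJ group. Pparg, the master regulator of fat cells, had a log2 fold change of 0.64 (limma adjusted p = 0.0547) with groups that did not overlap, as was the case for 20.1% of all tested genes in that direction. In the circadian clock, 2 of 22 genes rose and 4 fell, against 2 and 2 without TJ replicate 2, and the median was -0.06 and 0.05 without that library. Nr1d1, the repressor REV-ERB alpha, was at 27.1, 25.5 and 15.6 FPKM in the HFD libraries and at 60.6, 103 and 37.8 FPKM in the TJ libraries. Per3, a period gene, rose by 0.99. Arntl, which encodes BMAL1, a factor of the activating limb of the clock, had a log2 fold change of -1.16 (limma adjusted p = 0.0454) and of -0.87 without TJ replicate 2, where it was not a DEG (limma adjusted p = 0.0628), and its partner Npas2 had -1.18. Nr1d1 overlaps Thra on the opposite strand.

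Genes of sterol synthesis and transport were lower in the TJ group. Of 33 genes of cholesterol synthesis and transport, 0 rose and 13 fell, and the median was -0.89, while without TJ replicate 2 there were 1 and 15 with a median of -0.72. In the synthesis pathway, Sqle, squalene epoxidase, was at 10.9, 9.05 and 11.6 FPKM in the HFD group and at 3.47, 2.92 and 3.82 FPKM in the TJ group, so that its TJ libraries lay close together, and the difference was -1.39 ± 0.15 on the log2 scale (SE, limma, adjusted p = 0.0196). Lss, lanosterol synthase, had a log2 fold change of -2.03, and Idi1, Fdps, Cyp51, Msmo1 and Nsdhl lay between -1.19 and -0.89. Some steps did not pass. Hmgcs1, an early synthase of the pathway, was at 122, 113 and 112 FPKM in the HFD libraries and at 151, 108 and 132 FPKM in the TJ libraries. The regulator Srebf2 had a log2 fold change of -0.99, and Npc1, which moves sterol out of lysosomes, of -1.01. Apoe, the apolipoprotein of cholesterol efflux, was the member with the highest value, at 2415 to 3009 FPKM in the HFD group and 4146 to 9619 FPKM in the TJ group, and its log2 fold change of 1.10 did not pass (limma adjusted p = 0.0579). Without TJ replicate 2 it was 0.70 and Apoe was the 1 DEG that was higher.

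Of 29 genes of the unfolded protein response, 2 rose and 4 fell (1 and 5 without TJ replicate 2), a share of DEGs near that of all genes, and the median was -0.46 and -0.29 without that library. The count of fallers was not stable, with 2 up-regulated and 11 down-regulated DEGs without TJ replicate 3 and 2 and 7 with quantile normalization. Hspa5, the chaperone BiP, was at 319, 298 and 288 FPKM in the HFD group and at 151, 135 and 203 FPKM in the TJ group. Hsp90b1 and Sdf2l1, which work beside it, had log2 fold changes of -0.99 and -1.06, and the sensor Atf6 of -0.80. Trib3 and Sesn2, which rise under amino acid shortage, rose by 0.90 and 0.60. Of 31 targets of NRF2 and genes of superoxide defence, 5 rose and 3 fell, whereas with the length trend removed 2 rose and 5 fell. The risers were the microsomal glutathione transferases Mgst1, Mgst2 and Mgst3, Prdx5, a peroxiredoxin, and Sod3, the secreted superoxide dismutase, and the fallers were Hmox1, Srxn1 and Txnrd1. Hmox1, haem oxygenase, was at 110, 92.8 and 133 FPKM in the HFD group and at 59.2, 29.0 and 52.4 FPKM in the TJ group.

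In nutrient sensing, 5 of 27 genes of the mTOR pathway and sestrins rose and 5 fell, and without TJ replicate 2 these were 3 and 2. The fallers depended on the scale, with 4 up-regulated and 0 down-regulated DEGs once the length trend was removed and 7 and 0 with quantile normalization. Eif4ebp1, which holds back cap-dependent translation, was at 120, 87.9 and 98.9 FPKM in the HFD libraries and at 228, 422 and 188 FPKM in the TJ libraries. Sesn3, a sestrin, and Tsc1, a repressor of mTOR complex 1, had log2 fold changes of -0.99 and -0.81. Of 40 chromatin genes, 1 rose and 4 fell, fewer than the share of all genes. Besides Dnmt3a, the fallers were Dnmt1, Uhrf1 and Ezh2, which copy DNA methylation or methylate histone H3 and are abundant in dividing cells. Dnmt1 was at 13.3, 12.7 and 15.2 FPKM in the HFD group and at 5.55, 4.71 and 6.88 FPKM in the TJ group. Sirt5, a mitochondrial deacylase, rose by 0.75 on the log2 scale. Among 44 genes of mitochondrial import and dynamics, 4 rose and 0 fell, which is 9.09% called, below the share of all genes. These counts were 1 and 1 with the length trend removed, 11 and 0 with quantile normalization, 12 and 3 without TJ replicate 3, and 0 and 0 with array weights or the replicate number as a block. Among 76 genes of the mitochondrial ribosome, 15 rose and 0 fell, with a median of 0.48 and of 0.30 without TJ replicate 2. Transcripts of ribosomal proteins are short, and the fold change of all genes fell with transcript length (Spearman correlation -0.331 across 12725 genes, which are not independent). With that trend removed, the median of the mitochondrial ribosome was 0.18 with 6 up-regulated DEGs. Of 124 genes listed under the cytosolic ribosome, 96 were tested. Their median, which was 0.24 without TJ replicate 2, moved from 0.50 to -0.01 with the trend removed.

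Vascular genes were higher in the TJ group. Of 37 endothelial and angiogenic genes, 14 rose and 2 fell, and 15 and 3 without TJ replicate 2, with medians of 0.54 and 0.61. The mean log2 difference of the list from the HFD mean was 0.32, 0.62 and 0.72 in TJ replicates 1 to 3, so that the list as a whole was not highest in TJ replicate 2, although several of its genes were. Egfl7, a protein secreted by endothelium, was at 121, 102 and 74.6 FPKM in the HFD libraries and at 237, 433 and 282 FPKM in the TJ libraries. Sox18, an endothelial transcription factor, was at 28.7, 27.1 and 19.6 FPKM and at 53.8, 95.1 and 71.6 FPKM, which is 1.49 ± 0.24 on the log2 scale (difference ± SE, limma, adjusted p = 0.0236) and 1.29 without TJ replicate 2. Its relative Sox17, the guidance receptor Robo4, the clotting factor carrier Vwf and Nos3, endothelial nitric oxide synthase, rose by 1.11, 1.22, 1.19 and 1.41 on the log2 scale. Of the growth factors, Vegfb was at 33.0, 23.5 and 26.7 FPKM in the HFD group and at 67.7, 108 and 61.9 FPKM in the TJ group. Vegfa was at 81.1, 96.4 and 62.2 FPKM and at 149, 142 and 212 FPKM, where TJ replicate 3 was highest. Some general markers of endothelium did not pass. Pecam1 had a log2 fold change of 0.31 with overlapping groups, and Cdh5, the cadherin of endothelial junctions, of 0.44, and neither passed. The 2 that fell were Pdpn and Lyve1, which mark lymphatic vessels among other cells, with log2 fold changes of -0.96 and -0.78.

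Interferon-stimulated genes had more up-regulated DEGs than any other immune list here. Of 41 tested, 15 rose and 1 fell, and without TJ replicate 2 these were 14 and 0, with medians of 0.41 and 0.46. Ifi27l2a, a small interferon-induced protein of mitochondria, was the most abundant, at 801, 626 and 658 FPKM in the HFD libraries and at 3229, 5281 and 1162 FPKM in the TJ libraries. Its TJ libraries spread widely, and the difference was 1.97 ± 0.51 on the log2 scale (SE, limma, adjusted p = 0.0411). Igtp, an immunity-related GTPase, was at 7.71, 7.55 and 7.88 FPKM and at 22.1, 33.2 and 23.5 FPKM, and overlaps Irgm2 on the same strand, so that some of its fragments may belong to that gene. Bst2, which tethers budding viruses, was at 51.8, 42.4 and 47.3 FPKM and at 108, 152 and 94.4 FPKM. Isg15, the ubiquitin-like modifier, was at 7.92, 6.80 and 6.45 FPKM and at 14.6, 22.1 and 11.9 FPKM. The guanylate-binding proteins Gbp3 and Gbp2 rose by 0.99 and 0.71, and the peptide transporters Tap1 and Tap2 by 0.80 and 0.85 on the log2 scale. The factors Irf7 and Irf1 rose by 0.79 and 0.77. Not every member was called. Oas1a, an oligoadenylate synthetase, fell by 0.70 and was not a DEG without TJ replicate 2.

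The interferon-stimulated response element serves mainly type I interferon, while interferon gamma acts largely through another element that was not searched here. For the former, the letters GAAA, any 2 bases and GAAA again, read on both strands with overlaps counted, were searched in the 250 bases before and 50 bases after the start of each gene (RefSeq, GRCm38.p6). They stood in 6 of the 12 up-regulated members with an entry, in 10 of the 20 other members with an entry, and in 3.99% of 27025 genes. The matches thus did not separate the members that rose from those that did not. The promoters of Isg15 (chr4:156200769-156201068, minus strand) and Bst2 (chr8:71537423-71537722, minus strand) are shown because they hold 3 and 2 overlapping matches, here in capitals.
Isg15: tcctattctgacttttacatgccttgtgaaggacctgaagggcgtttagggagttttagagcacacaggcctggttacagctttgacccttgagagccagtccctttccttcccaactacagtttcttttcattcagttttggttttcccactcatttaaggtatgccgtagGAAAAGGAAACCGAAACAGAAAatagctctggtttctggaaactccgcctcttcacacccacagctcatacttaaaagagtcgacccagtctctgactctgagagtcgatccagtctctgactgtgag
Bst2: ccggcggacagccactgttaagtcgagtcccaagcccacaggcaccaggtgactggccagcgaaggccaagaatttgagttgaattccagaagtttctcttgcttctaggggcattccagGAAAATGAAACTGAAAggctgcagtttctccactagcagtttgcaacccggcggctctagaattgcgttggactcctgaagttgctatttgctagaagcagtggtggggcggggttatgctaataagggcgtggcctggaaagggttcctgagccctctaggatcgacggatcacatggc

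Lymphocyte genes gave low values. Of 36 listed, 16 were tested, of which 3 rose and 1 fell, and 0 and 1 without TJ replicate 2. Lck, Cd247 and Nkg7, genes of T and natural killer cells, rose from low levels, for example Nkg7 from 1.75, 1.58 and 1.87 FPKM to 3.28, 3.18 and 2.99 FPKM. Il7r, which stromal and myeloid cells can also express, fell from 41.1, 41.9 and 54.0 FPKM to 16.2, 1.56 and 13.8 FPKM. Of chemokines, their receptors and related genes, 3 of 45 rose and 7 fell (2 and 9 without TJ replicate 2), and the median was -0.44 and -0.27 without that library. This is 22.2% called, near the 18.5% of all genes. The up-regulated share of 6.67% was below the 7.41% of all genes and the down-regulated share of 15.6% above the 11.1%. The risers included Cxcl9, a chemokine induced by interferon gamma, at 9.48, 11.2 and 10.2 FPKM in the HFD group and 23.9, 38.0 and 27.0 FPKM in the TJ group. Ccl5 and Ccl11, which attract T cells and eosinophils, rose by 0.76 and 0.74 on the log2 scale. Ccl2, which attracts monocytes, was at 39.0, 34.3 and 49.5 FPKM and at 13.8, 8.77 and 19.0 FPKM. The difference was -1.54 ± 0.28 on the log2 scale (SE, limma, adjusted p = 0.0248). The receptor Ccr1 had a log2 fold change of -1.08, and Ccl3 fell by 1.00.

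Genes of dividing cells formed the list with the highest share of down-regulated DEGs among the 45 lists. Of 47 tested, 28 fell and 1 rose, with a median of -1.03, and without TJ replicate 2 these were 27 and 1 with a median of -0.81. Cdk1 (ENSMUSG00000019942), the kinase of mitotic entry, was at 18.8, 22.2 and 25.0 FPKM in the HFD libraries and at 7.23, 8.91 and 10.3 FPKM in the TJ libraries. The difference was -1.23 ± 0.17 on the log2 scale (SE, limma, adjusted p = 0.0196) and -1.25 without TJ replicate 2. Ccnb1, its cyclin partner, was at 9.78, 5.63 and 6.51 FPKM and at 2.34, 0.651 and 2.26 FPKM. Mki67, the proliferation marker Ki-67, was at 7.64, 8.41 and 7.78 FPKM and at 2.65, 1.32 and 3.10 FPKM. The fall spanned replication and mitosis. The helicase subunits Mcm2, Mcm3, Mcm5 and Mcm6 had log2 fold changes of -1.09, -0.82, -1.58 and -1.20, the clamp Pcna of -1.10 and the reductase subunits Rrm1 and Rrm2 of -1.29 and -1.21. The checkpoint kinase Bub1 and topoisomerase Top2a had log2 fold changes of -1.55 and -1.57. Ccnd3, a G1 cyclin also abundant in cells that do not divide, rose by 0.77. Sperm development also uses several of these genes, and its markers were high in HFD replicate 1, without which the median of the list was -0.94. The part of germ cell RNA in the values of this list was not tested.

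The CCAAT box is a common element of cell cycle promoters. The letters CCAAT, on both strands, stood in 20 of the 22 down-regulated members with an entry, in 9 of the 14 other members with an entry, and in 41.1% of 27025 genes (RefSeq, GRCm38.p6). In cholesterol synthesis and transport they stood in 7 of the 7 down-regulated members with an entry and in 11 of the 16 others. The sterol regulatory element, searched in the same list as TCACNCCAC on both strands, stood in 0 of the 7 down-regulated members, in 1 of the 16 others and in 1.44% of all genes. The promoters of Ccnb1 (chr13:100786437-100786736, minus strand) and Cdk1 (chr10:69352863-69353162, minus strand) are shown as members whose values are given above, with 2 and 3 matches in capitals.
Ccnb1: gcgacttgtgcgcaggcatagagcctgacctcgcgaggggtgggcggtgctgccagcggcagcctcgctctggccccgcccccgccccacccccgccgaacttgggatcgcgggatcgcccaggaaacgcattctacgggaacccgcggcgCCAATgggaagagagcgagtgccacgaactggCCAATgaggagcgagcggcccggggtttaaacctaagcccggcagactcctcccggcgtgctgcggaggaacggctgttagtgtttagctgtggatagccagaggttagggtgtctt
Cdk1: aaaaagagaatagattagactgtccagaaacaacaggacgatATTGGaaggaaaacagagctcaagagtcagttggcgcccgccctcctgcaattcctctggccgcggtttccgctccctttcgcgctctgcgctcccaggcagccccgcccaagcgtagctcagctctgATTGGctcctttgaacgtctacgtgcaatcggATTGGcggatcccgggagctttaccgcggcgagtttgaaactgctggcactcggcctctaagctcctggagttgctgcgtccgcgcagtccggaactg

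**Figure D3:**
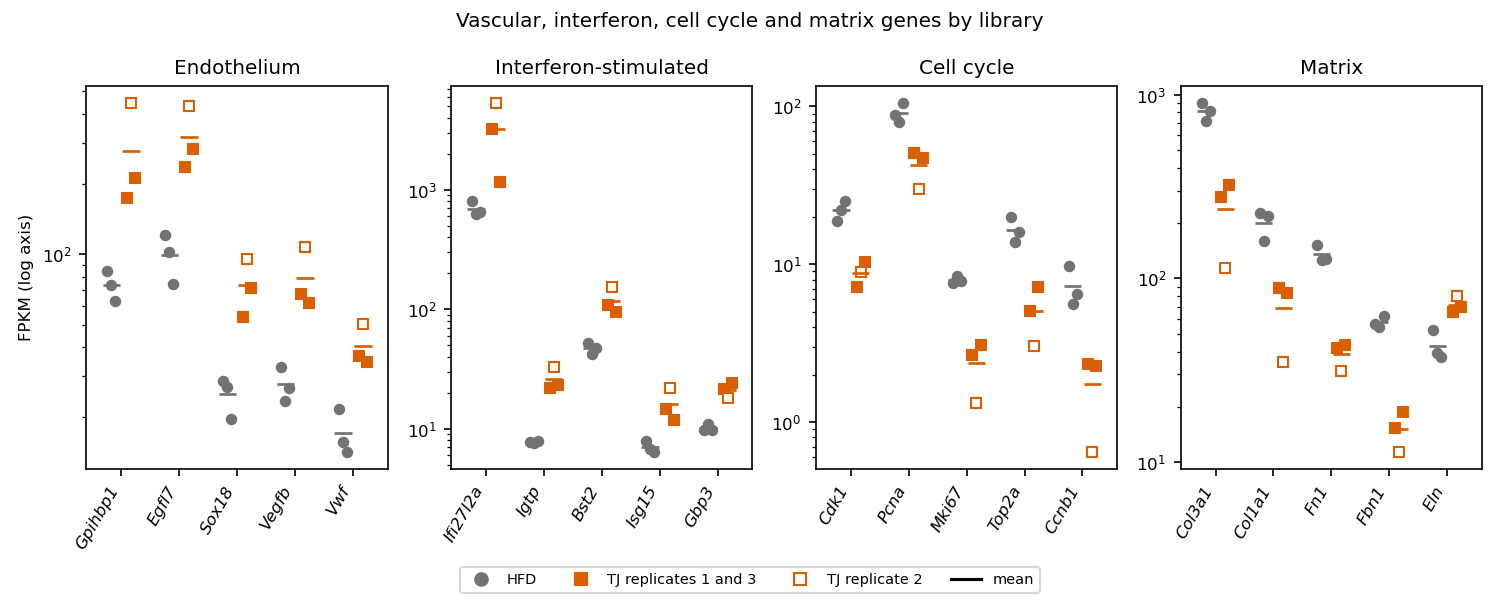
FPKM on a log axis of 20 genes of endothelium, interferon response, cell cycle and matrix in the 3 HFD libraries (grey circles) and 3 TJ libraries (orange squares, TJ replicate 2 open), with the group means as bars. The groups do not overlap in any of the 20 genes drawn, as in 51.5% of all tested genes, and TJ replicate 2 is the lowest TJ library for Pcna, Mki67, Top2a and Ccnb1 but lies between the others for Cdk1.

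Macrophage genes fell in part, and their mean log2 value was lowest in TJ replicate 2. Of 29 genes of lipid-associated macrophages, the cells that surround dying fat cells, 1 rose and 11 fell, and the median was -1.73. Without TJ replicate 2, 2 rose and 20 fell with a median of -1.18, and the cause of the larger count was not tested. The mean log2 differences of the list from the HFD mean were -0.80, -2.48 and -1.04 in TJ replicates 1 to 3. In sum, its FPKM overlapped, at 14356 to 17233 in the HFD libraries and 13665, 15132 and 12460 in the TJ libraries. Lipa, lysosomal acid lipase, was at 365, 379 and 439 FPKM in the HFD libraries and at 142, 32.9 and 136 FPKM in the TJ libraries. Cd68, a lysosomal membrane protein of macrophages, was at 532, 398 and 532 FPKM and at 180, 47.9 and 160 FPKM. Trem2, the lipid receptor that defines these cells, was at 338, 232 and 365 FPKM and at 158, 20.0 and 110 FPKM, and its log2 fold change of -2.09 did not pass (limma adjusted p = 0.0713). Acp5, tartrate-resistant acid phosphatase, went the other way, from 148, 137 and 161 FPKM to 286, 375 and 261 FPKM.

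Markers of resident macrophages split. Of 24 tested, 2 rose and 7 fell, with a median of -0.31, and 1 and 8 without TJ replicate 2 with a median of -0.12, near that of all genes without that library. The FPKM of this list summed to 1352 to 1563 in the HFD libraries and to 2008, 2260 and 1667 in the TJ libraries. Folr2, a folate receptor of resident cells, was at 128, 97.6 and 143 FPKM in the HFD group and at 48.0, 48.6 and 48.2 FPKM in the TJ group, where the libraries were nearly alike and TJ replicate 2 did not stand apart. Adgre1, the F4/80 antigen, and Csf1r, the receptor of the macrophage growth factor, had log2 fold changes of -2.51 and -1.50, and Mrc1, the mannose receptor, of -1.39. Retnla, a resistin-like protein of alternatively activated macrophages that fat cells also make, rose from 408, 320 and 190 FPKM to 1311, 1694 and 951 FPKM. Cd163, a scavenger receptor of resident cells, had a log2 fold change of -0.19 and overlapping groups.

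The lysosomal genes that were called all fell, and 40 were not called. Of 62 tested, 0 rose and 22 fell, and 0 and 25 without TJ replicate 2, with medians of -0.72 and -0.50. The FPKM of the list summed to 16570 to 21062 in the HFD libraries and to 13222, 7902 and 11854 in the TJ libraries. Ctsd, cathepsin D, was at 3201, 2561 and 3453 FPKM in the HFD group and at 1655, 1078 and 1678 FPKM in the TJ group, which is -1.08 ± 0.23 on the log2 scale (difference ± SE, limma, adjusted p = 0.0294). Subunits of the proton pump, Atp6v1a, Atp6v0a1 and Atp6v1b2, had log2 fold changes of -1.62, -1.04 and -1.06. Mitf, a transcription factor of lysosomal genes, fell by 1.22. Atp6v0d2, a pump subunit of macrophages and osteoclasts, had the lowest log2 fold change of the list at -2.72, from 165, 164 and 196 FPKM to 72.0, 3.30 and 59.0 FPKM, and did not pass with TJ replicate 2 in the fit (limma adjusted p = 0.0881). Factors of the MITF family bind the E-box. Its letters CACGTG, which read the same on both strands, stood in 6 of the 15 down-regulated members with an entry, in 8 of the 33 others with an entry, and in 8.09% of 27025 genes (RefSeq, GRCm38.p6). The promoter of Ctsd (chr7:142387778-142388077, minus strand) is shown with its 2 matches in capitals.
Ctsd: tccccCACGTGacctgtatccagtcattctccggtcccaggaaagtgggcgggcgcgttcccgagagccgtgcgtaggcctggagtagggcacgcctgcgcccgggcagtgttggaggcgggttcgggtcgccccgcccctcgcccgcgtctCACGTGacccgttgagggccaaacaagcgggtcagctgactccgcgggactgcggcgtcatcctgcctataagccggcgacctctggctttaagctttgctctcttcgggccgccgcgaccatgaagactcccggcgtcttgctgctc

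Innate sensors had 18 down-regulated and 0 up-regulated DEGs of 33 genes, the same counts as without TJ replicate 2, with medians of -0.97 and -0.72. The endosomal receptors Tlr8, Tlr13 and Tlr7, which sense RNA, had log2 fold changes of -2.79, -2.75 and -1.73. At the cell surface, Tlr4, the receptor of endotoxin, was at 11.9, 17.4 and 16.1 FPKM in the HFD group and at 5.66, 4.40 and 7.54 FPKM in the TJ group, and its helper Cd14 fell by 1.00. Tlr2 was at 7.84, 7.90 and 8.16 FPKM and at 3.39, 2.49 and 4.59 FPKM. Of the inflammasome, Casp1, the protease that matures interleukin 1, was at 21.2, 19.7 and 24.7 FPKM and at 8.77, 6.91 and 12.1 FPKM, and its adaptor Pycard fell by 1.04. In complement, 9 of 25 genes fell, as without TJ replicate 2, and the single riser with 6 libraries was Cfd, adipsin, a protease made by fat cells. The subunits C1qa, C1qb and C1qc, made by macrophages, had log2 fold changes of -0.73, -1.26 and -1.16.

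Of 15 genes of MHC class II and co-stimulation, 0 rose and 3 fell, so that the share of DEGs was near that of all genes and the down-regulated share above it, with a median of -0.08 that was 0.03 without TJ replicate 2. Cd74, the invariant chain, was at 1406, 1041 and 1159 FPKM in the HFD libraries and at 1335, 848 and 1271 FPKM in the TJ libraries. H2-Aa, a class II chain, was at 791, 676 and 664 FPKM and at 848, 560 and 753 FPKM, with overlapping groups. The 3 that fell were the co-stimulators Cd80, Cd40 and Cd83, with log2 fold changes of -0.81, -0.87 and -1.47. The mast cell proteases that passed the filter were lower in the TJ group. Of 19 neutrophil and mast cell genes listed, 10 were tested, and 4 fell and 0 rose, with and without TJ replicate 2. Cpa3, carboxypeptidase A of mast cells, was at 4.14, 4.85 and 6.24 FPKM in the HFD group and at 0.495, 0.216 and 0.164 FPKM in the TJ group. It thus passed the filter of 1 FPKM only through the HFD group, and a filter on the mean favours such members. The difference was -2.23 ± 0.22 on the log2 scale (SE, limma, adjusted p = 0.0196) and -2.19 without TJ replicate 2. Mcpt4, Cma1 and Tpsb2, the other mast cell proteases of the list, had log2 fold changes of -2.04, -1.86 and -1.83.

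**Figure D4:**
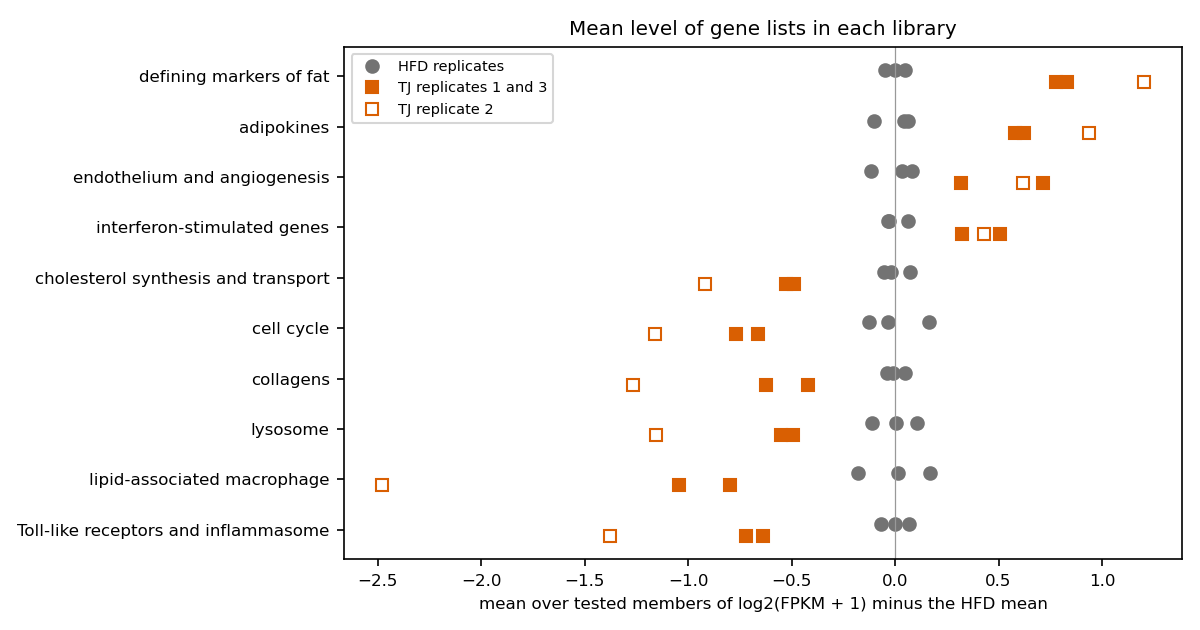
Mean over the tested members of log2(FPKM + 1) minus the mean of the HFD group, for 10 gene lists in the 3 HFD libraries (grey circles) and 3 TJ libraries (orange squares, TJ replicate 2 open). TJ replicate 2 is the most distant library in lipid-associated macrophage genes at -2.48, against -0.80 and -1.04 in the other TJ libraries, and lies between them in endothelial and interferon-stimulated genes.

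Collagens and other matrix genes had more down-regulated than up-regulated DEGs. Of 22 collagens, 0 rose and 8 fell, with a median of -0.62, and 0 and 7 without TJ replicate 2 with a median of -0.39. Collagen transcripts are long, and with the length trend removed the median was -0.34 with 6 down-regulated DEGs. Col3a1 (ENSMUSG00000026043, GRCm38, chr1:45311538-45349706, plus strand), a fibrillar collagen, was at 895, 715 and 818 FPKM in the HFD group and at 278, 114 and 323 FPKM in the TJ group. The difference was -1.89 ± 0.38 on the log2 scale (SE, limma, adjusted p = 0.0276) and -1.42 without TJ replicate 2. The chains of type I collagen, Col1a1 and Col1a2, had log2 fold changes of -1.62 and -1.37. Col15a1, a basement membrane collagen that fat cells make, was the single member with a higher mean log2 value in the TJ group, at 0.32 with overlapping groups.

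Of 52 matrix enzymes and matricellular proteins, 18 fell and 2 rose, and 21 and 2 without TJ replicate 2. Without regard to calls, 40 were lower and 12 higher in the TJ group. The FPKM of the list overlapped in sum, at 6206 to 6774 in the HFD libraries and 6173, 5364 and 6790 in the TJ libraries. Fn1, fibronectin, was at 152, 126 and 128 FPKM in the HFD libraries and at 41.8, 31.3 and 43.3 FPKM in the TJ libraries, which is -1.78 ± 0.17 on the log2 scale (difference ± SE, limma, adjusted p = 0.0196). Fbn1, fibrillin of microfibrils and precursor of the hormone asprosin, was at 56.3, 54.4 and 62.2 FPKM and at 15.3, 11.4 and 18.9 FPKM. Neither gene rested on TJ replicate 2, with log2 fold changes of -1.64 and -1.70 without it. The cross-linking enzymes Loxl1, Loxl2 and Plod2 had log2 fold changes of -0.79, -0.99 and -0.96, and the proteoglycans Bgn and Lum of -0.84 and -1.84. The risers were Eln, elastin, and Hspg2, the basement membrane proteoglycan perlecan, at 0.73 and 0.71 on the log2 scale. Of 25 genes of progenitors and stroma, 0 rose and 6 fell, with and without TJ replicate 2. The median was -0.21, near the -0.14 of all genes, and -0.33 without that library. Without regard to calls, 9 members were higher and 16 lower in the TJ group. Pdgfra, the receptor that marks fat progenitors, was at 18.4, 20.2 and 20.0 FPKM in the HFD group and at 7.50, 5.44 and 9.05 FPKM in the TJ group. Cd248, endosialin of stromal cells, had a log2 fold change of -1.57 and -1.73 without TJ replicate 2.

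Without TJ replicate 2, up- and down-regulated DEGs were 4 and 1 in fatty acid uptake, 2 and 4 in fatty acid synthesis, 5 and 5 in insulin signalling, 1 and 4 in thermogenic genes, 3 and 1 in the peroxisome and 3 and 0 among fat cell transcription factors. They were 6 and 3 among NRF2 targets, 1 and 4 in chromatin, 4 and 0 in mitochondrial import, 12 and 0 in the mitochondrial ribosome and 0 and 4 in MHC class II and co-stimulation. Glycolysis went from 2 and 4 to 1 and 2, and the proteasome from 3 and 1 to 2 and 0.

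Of the 8 defining fat markers, 6 rose (5 without TJ replicate 2), and the mean log2 value of lipid-associated macrophage genes was lowest in TJ replicate 2, where the fat markers were highest. The mean log2 value of the vascular list was highest in TJ replicate 3, where that of the fat markers was lowest among the TJ libraries. Whether cell content differed between the libraries, and its part in the values of the other lists, was not tested. Skeletal muscle markers were at 37.5 to 40.7 FPKM in sum in the HFD group and 51.7 to 63.3 FPKM in the TJ group, with 1 of 6 tested genes up-regulated. Among 12 genes of mesothelium and keratins, 1 rose and 1 fell, and among 7 erythrocyte genes limma called 0. Among 37 proteasome genes, 3 rose and 1 fell (1 and 3 with the length trend removed), and among 96 of the cytosolic ribosome 4 rose and 2 fell, shares that lie below that of all genes. Among 22 genes of glycolysis, 2 rose and 4 fell, which is 27.3% called, above the share of all genes, and with the length trend removed 0 rose and 3 fell. Without TJ replicate 2 these were 1 and 2, where the share was no longer above that of all genes, and with array weights 0 and 1. Of 19 germ cell and 8 epididymis genes tested, 1 and 0 fell, and 0 in either list without TJ replicate 2.

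Several of the largest changes fell outside these lists. By the rule used for single genes, 1272 DEGs qualified, 551 up-regulated and 721 down-regulated, and the 14 largest in each direction were taken. Of those in no list, Zranb3, an annealing helicase of replication forks, had the largest fall, from 53.6, 48.3 and 84.8 FPKM in the HFD libraries to 7.67, 1.13 and 6.53 FPKM in the TJ libraries, or -2.92 on the log2 scale without TJ replicate 2. Rnf128, a ubiquitin ligase, had a log2 fold change of -3.01 and of -2.03 without TJ replicate 2. Among the risers, Eci3, an enoyl-CoA isomerase, was at 0.944, 2.13 and 2.06 FPKM in the HFD libraries and between 10.2 and 22.3 FPKM in the TJ libraries. Tcf15, a transcription factor of capillary endothelium in fat and heart, was at 5.79, 3.61 and 5.16 FPKM and at 20.2, 39.3 and 22.7 FPKM, a log2 fold change of 2.24 and 1.96 without TJ replicate 2. Dpm1, which makes the mannose donor of glycosylation, and Lmo1, a LIM-domain regulator, had log2 fold changes of 2.19 and 2.15. Dpm1 overlaps another gene on its own strand. Prtn3, proteinase 3, rose from 1.28, 2.05 and 0.911 FPKM to 7.17, 28.0 and 5.82 FPKM and lies opposite Plppr3. Of the other fallers, Dhrs9, a retinol dehydrogenase of macrophages, was at 16.9, 19.0 and 24.5 FPKM in the HFD group and at 4.29, 0.217 and 3.72 FPKM in the TJ group. Cadm1, a cell adhesion molecule, was at 32.9, 31.6 and 44.6 FPKM and at 8.06, 1.37 and 7.24 FPKM. Sdc3, a syndecan, Rgs1, a regulator of G protein signalling in leukocytes, and Slc37a2, a sugar-phosphate exchanger of macrophages, had log2 fold changes of -2.54, -2.58 and -2.48, and without TJ replicate 2 of -1.99, -1.68 and -1.55. Slc37a2 lies opposite another gene. In each of the fallers named here TJ replicate 2 was the lowest library.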

How the data were processed

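The authors deposited 1 table of FPKM per gene, made from 2 × 100 bp reads of Illumina TruSeq libraries with STAR and Cufflinks (2.4.0 and 2.1.1 in the submitters' processing notes). Their methods name a human genome, whereas all identifiers are mouse. Names, coordinates and lengths came from GENCODE M21 (GRCm38), which named 22671 identifiers and left 803 without a name. Genes that averaged 1 FPKM or more across the 6 libraries were fitted on log2(FPKM + 1) with limma 3.58.1 (R 4.3.3; moderated with a mean-variance trend, no covariates), and p-values were adjusted by the Benjamini-Hochberg method. Fold changes of low genes are understated on this scale. On simulated data the fit recovered 46 of 100 changes of 2-fold and 89 of 100 larger ones, with 5 false calls among 140. The simulated libraries held none that stood apart as TJ replicate 2 did. The replicate number was not used to pair the samples in the main fit. The p-values measure the spread between these mice, 3 per group.

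Single genes were named by 3 rules. The first took, outside the set-apart lists, the 14 most up-regulated and 14 most down-regulated DEGs that had a gene symbol, a mean of at least 10 FPKM in the higher group, no overlap between groups and a DEG call also without TJ replicate 2. The second took the extremes and the 2 most abundant members of each list, and the third all DEGs of lists with 5 or fewer. Not every gene so chosen is named, and other list members were named after their values were seen. Members and lists were chosen with earlier results of these data known. Promoters came from RefSeq. The alternatives were other pseudocounts, filters, scalings, variance models and thresholds, a replicate block, removal of the length trend, all 12 libraries, and each library left out. Some members of the lists are counted but not reported by name here.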

Additional observations from a re-analysis of the deposited data

How the results depend on the processing

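The number of DEGs was 2366 and depended on which libraries were in the fit. With each library left out in turn it ran from 0 to 3412, with 0 to 1245 up-regulated and 0 to 2167 down-regulated. With all 12 libraries it was 1, with 1 up-regulated and 0 down-regulated. Without a filter on low values it was 382, with 198 up-regulated and 184 down-regulated. With the trend of transcript length removed, 629 genes were up-regulated, and with quantile normalization 1543. With an adjusted p under 0.1, 2172 were down-regulated. The cause of these changes was not tested.

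The deviations of same-numbered libraries correlated at -0.03, -0.05 and 0.23. Those of differently numbered libraries were not compared, so whether the replicate numbers pair the samples was not tested. With the number as a replicate block, 1198 genes were called, 429 up-regulated and 769 down-regulated.

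Of all 2366 DEGs, 1831 were DEGs in the same direction without TJ replicate 2. Of 196 DEGs named in the text, 188 were DEGs without TJ replicate 2, a share that the choice of genes partly fixed, since 1 of the rules required that call. With the block 151 of them were DEGs and without a filter 53. The balance of up- and down-regulated DEGs in insulin signalling turned from 6 and 5 to 5 and 6 with a pseudocount of 0.01, to 2 and 3 with the block and to 5 and 7 without TJ replicate 3. That of fatty acid synthesis turned from 2 and 3 to 2 and 1 with array weights and 1 and 0 with the block, and with the block NRF2 targets went from 5 and 3 to 2 and 3 and the cytosolic ribosome from 4 and 2 to 1 and 2. Over all alternatives, 5 of 211 named genes changed sign, and Scd1 was the DEG among them, at -0.039 with quantile normalization. With array weights and with median-of-ratios scaling, Cd74 was at 0.0013 and 0.050 and Dgat2 at 0.14 and 0.11. With the length trend removed, Fasn was at 0.040 and H2-Aa at -0.0030. With quantile normalization, H2-Aa was at -0.34. With each library left out in turn, Cd74 ran from -0.20 to 0.13, Dgat2 from -0.18 to 0.20 and H2-Aa from -0.12 to 0.17. Of 45 list medians, 12 changed sign under some alternative and 3 without TJ replicate 2, those of amino acid breakdown, the circadian clock and MHC class II. FPKM carry no counting error, so the precision of low genes is not known.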
